A study of Mus musculus with 15 samples.

Results

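The 39 genes described here build the loose connective tissue under an epithelium: fibrillar and associated collagens, small leucine-rich proteoglycans, elastic fibre proteins, adhesive and matricellular proteins, and the enzymes and inhibitors that process and turn over this matrix. They were taken as a named list, and each was measured by the probe set of its gene symbol on 15 arrays of mouse choroid plexus. Of the 39, 37 were measured. Fbn1 (fibrillin-1) and Loxl2 had no probe set carrying their symbol alone and were not analysed here. Each of the 37 had 1 such probe set. A gene was tested if it lay above 5.31 on at least 5 arrays. This level was the median log2 value of the 19938 genes, with 1 probe set per gene, over the 15 arrays. The filter kept 27 of the 37 members and 10109 of the 19938 genes in all. All 27 lay above that level on 15 of 15 arrays, so none passed through the level of a single genotype.

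The choroid plexus is a fold of vascular tissue in each brain ventricle, in which an epithelium that secretes cerebrospinal fluid rests on a stroma of fibroblasts, capillaries and macrophages. Stromal fibroblasts secrete procollagens, which are trimmed by proteases, assembled into fibrils and cross-linked by lysyl oxidases. Decorin, biglycan and their relatives bind the fibrils and set their spacing and width, and fibulins help tropoelastin to be laid down on microfibrils as elastic fibres. Several of these proteins also hold or release transforming growth factor beta (TGF-beta).

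Animals were null, heterozygous or wild type for Add1, the gene for alpha-adducin, a protein that caps actin filaments and links them to spectrin under the cell membrane. All were C57BL/6J mice labelled male and 3 weeks old, an age chosen by the study as preceding hydrocephalus, and choroid plexi were dissected from the ventricles. There were 5 null, 5 heterozygous and 5 wild-type animals, each giving 1 single-colour whole-transcript array from 250 ng of total RNA. Values are robust multi-array average (RMA) levels on the log2 scale, so a difference of 1 is a doubling of signal.

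Add1 read 7.66, 7.74, 7.76, 7.46 and 7.41 in null arrays 1 to 5, 7.68, 7.68, 7.74, 7.92 and 7.79 in heterozygous arrays and 7.96, 8.04, 7.78, 7.81 and 8.0 in wild-type arrays. The null arrays all lay below the wild-type arrays (difference -0.31, SE 0.0791, limma adjusted p = 0.0241). The null and heterozygous arrays overlapped. Null array 3 lay above heterozygous arrays 1, 2 and 3, and null array 2 above heterozygous arrays 1 and 2. The null minus heterozygous difference of -0.16 was not called (SE 0.0791, limma adjusted p = 0.224). Signal remained in all null arrays, and the sources used here do not say whether the probes fall in the deleted part. Some libraries stood apart. Null arrays 1 and 5 did not match the male label: Xist, the RNA of the inactive X chromosome, read 9.09 and 9.69 there and 3.11 to 3.88 on the other arrays, and Eif2s3y, Kdm5d and Uty of the Y chromosome read 3.19 to 4.27 there and 6.92 to 7.95 elsewhere. Heterozygous array 1 had a mean of 7.73 over 3 neuron markers, against 5.37 to 6.33 on all other arrays. Null array 4 and wild-type array 5 had means of 7.81 and 7.74 over 9 leptomeningeal markers, against 6.54 to 7.22 elsewhere. Markers of choroid plexus epithelium (8 genes) averaged 11.51 to 11.62 on null, 11.48 to 11.60 on heterozygous and 11.49 to 11.61 on wild-type arrays, so the labelled tissue was present throughout.

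Null against wild type asked which matrix genes differ in animals without Add1 before hydrocephalus. Of the 27 members, 8 passed the test (29.6%): Fbln5, Thbs1, Dcn, Bgn, Fbln1 and Mmp14 were higher and Ogn and Pcolce lower in null animals. Over all 10109 genes, 4.17% were called higher (422 genes) and 3.54% lower (358 genes), where called means a Benjamini-Hochberg adjusted p under 0.05 in limma. Centring each array on its own median turned that split to 262 higher and 558 lower and called 7 members, Bgn no longer among them (0.61, limma adjusted p = 0.053). The median difference of the 27 members was 0.12, beside 0.01 for all tested genes, with 9 members below 0. The members' median was 0.01 without null array 4 and 0.25 without null arrays 1 and 5. Null arrays were separate from all wild-type arrays for 5 members (Dcn, Fbln5, Fbln1, Mmp14 and Col8a1), or 18.5%, against 5.95% of all tested genes. In bulk tissue, fewer cells of a type and less RNA per cell cannot be told apart.

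Null against heterozygous gave 6 called members (22.2%), all higher in null: Fbln5, Bgn, Dcn, Thbs1, Fbln1 and Mmp14. Here 4.28% of all tested genes were called higher and 3.54% lower. Arrays of the null and heterozygous animals did not overlap for 6 members, Bgn joining the 5 named above, against 5.76% of all tested genes. Both comparisons use the same null arrays, so their values are given side by side and are not independent of each other.

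The calls depended in part on single animals. Without null arrays 1 and 5, 7 members were called against wild type, among 401 of the 10109 genes: Fbln5 (0.88), Thbs1 (0.83), Dcn (0.66), Mmp14 (0.57), Fbln1 (0.54) and Eln (0.36) were higher and Ogn (-0.55) lower, with limma adjusted p between 3.50e-04 and 0.0395. Against heterozygous animals, the same omission left 8 members called, all higher, among 332 genes, with Eln (0.38) and Col3a1 (0.47) added to the 6 (adjusted p = 0.0299 and 0.0363). Without wild-type array 5 and heterozygous array 1, 8 members were called against wild type, among 779 genes, with Fmod (0.59, adjusted p = 0.0124) gained and Ogn (-0.56, adjusted p = 0.0518) lost. The count against wild type fell to 5 without null array 1 (among 401 genes) or without wild-type array 3 (among 449 genes), when Bgn, Ogn and Pcolce were no longer called. Each animal also carries a label number of unexplained meaning that is partly aligned with genotype. With it as a covariate, 4 members were called in each null comparison, among 259 genes against wild type and 199 against heterozygous. They were the same 4 in both, and 2 of them, Ogn and Eln, lay farther from 0 than without it by over 1.5 times: Fbln5 (1.195 against wild type, 1.29 against heterozygous), Fbln1 (0.79 and 0.67), Eln (0.55 and 0.56) and Ogn (-1.04 and -0.82). Not called against wild type were Mmp14 (0.35), Thbs1 (0.60), Dcn (0.59), Bgn (0.41) and Pcolce (-0.25), with limma adjusted p of 0.103 to 0.432. Not called against heterozygous animals were Mmp14 (0.38), Dcn (0.73), Bgn (0.72) and Thbs1 (0.51), with limma adjusted p of 0.0767 to 0.155. With the label number as a random block instead, 8 members were called against wild type, among 721 genes. Against heterozygous animals 6 were called, among 757 genes. Label number and genotype are partly aligned, so their parts cannot be fully told apart.

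**Figure D1:**
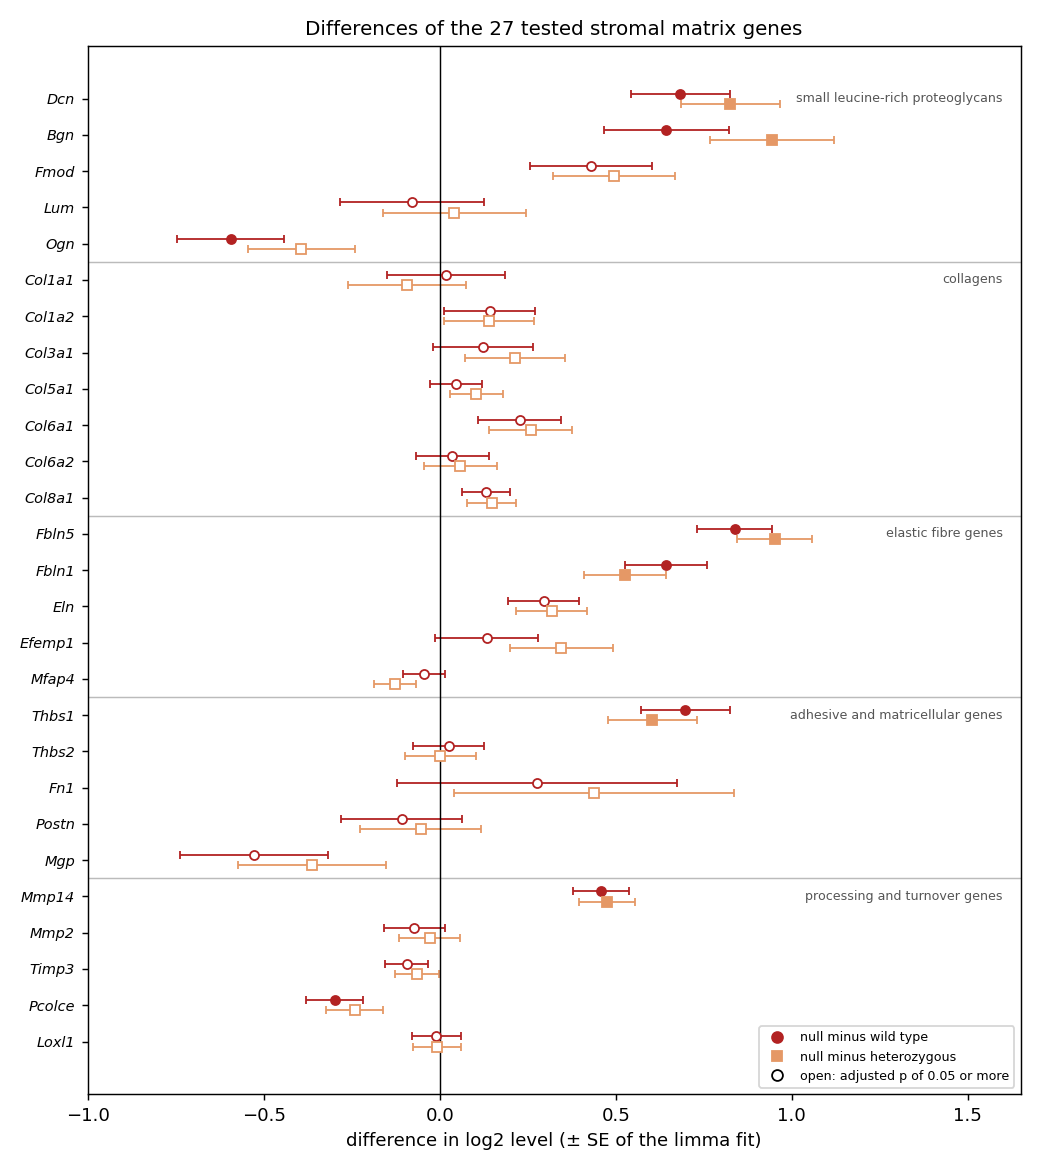
Differences in log2 level between null and wild-type animals (circles) and between null and heterozygous animals (squares) for the 27 tested genes, by role; bars are the SE of the limma fit and open symbols have an adjusted p of 0.05 or more. Fbln5, Dcn, Bgn, Thbs1, Fbln1 and Mmp14 lie to the right with filled symbols in both comparisons, while all 7 collagens have open symbols.

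The stretches of DNA around the starts of the 6 called genes with a listed start are printed, 4 of them higher and 2 lower in null animals, to show how their starts differ in base composition. Fbln5 and Fbln1 have a pair of listed starts each, and the one with GC boxes is shown, a choice made after the search. They are 300 bases long, from 250 before to 50 after the RefSeq start in GRCm38.p6, and are read 5′ to 3′ along the gene. Fbln5 is at chr12:101819070-101819369 on the minus strand, Fbln1 at chr15:85205758-85206057 on the plus strand, Bgn at chrX:73483351-73483650 on the plus strand, Mmp14 at chr14:54431348-54431647 on the plus strand, Ogn at chr13:49607765-49608064 on the plus strand and Pcolce at chr5:137611355-137611654 on the minus strand. Capitals mark the GC box, GGGCGG, or the TATA box, TATAAA, on either strand; these motifs were picked for display after the search.
Fbln5: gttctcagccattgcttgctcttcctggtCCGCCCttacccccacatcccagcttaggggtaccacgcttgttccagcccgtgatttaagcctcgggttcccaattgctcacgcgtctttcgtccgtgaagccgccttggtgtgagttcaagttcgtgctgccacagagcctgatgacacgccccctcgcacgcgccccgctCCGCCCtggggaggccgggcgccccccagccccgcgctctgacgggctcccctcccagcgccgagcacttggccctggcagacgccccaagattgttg
Fbln1: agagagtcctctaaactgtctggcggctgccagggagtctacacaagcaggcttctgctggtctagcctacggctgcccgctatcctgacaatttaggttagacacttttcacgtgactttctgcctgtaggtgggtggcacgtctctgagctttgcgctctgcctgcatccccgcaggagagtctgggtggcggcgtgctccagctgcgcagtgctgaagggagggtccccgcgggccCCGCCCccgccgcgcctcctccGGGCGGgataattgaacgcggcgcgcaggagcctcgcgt
Bgn: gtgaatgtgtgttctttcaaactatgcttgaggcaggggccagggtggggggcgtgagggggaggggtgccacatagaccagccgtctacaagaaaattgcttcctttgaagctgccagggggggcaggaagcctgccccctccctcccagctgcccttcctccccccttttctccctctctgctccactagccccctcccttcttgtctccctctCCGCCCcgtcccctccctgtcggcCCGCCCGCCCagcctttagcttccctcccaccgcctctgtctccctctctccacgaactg
Mmp14: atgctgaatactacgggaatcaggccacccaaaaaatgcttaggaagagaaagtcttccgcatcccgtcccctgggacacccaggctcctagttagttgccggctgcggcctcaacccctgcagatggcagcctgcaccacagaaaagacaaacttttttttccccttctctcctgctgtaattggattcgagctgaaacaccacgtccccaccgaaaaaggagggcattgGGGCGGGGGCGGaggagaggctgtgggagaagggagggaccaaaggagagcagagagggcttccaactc
Ogn: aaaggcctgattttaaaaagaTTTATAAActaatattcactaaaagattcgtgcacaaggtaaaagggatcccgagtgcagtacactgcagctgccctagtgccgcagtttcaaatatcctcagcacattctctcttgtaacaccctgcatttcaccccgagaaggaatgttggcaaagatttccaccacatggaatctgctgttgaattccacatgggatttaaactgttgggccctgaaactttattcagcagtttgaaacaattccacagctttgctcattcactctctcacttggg
Pcolce: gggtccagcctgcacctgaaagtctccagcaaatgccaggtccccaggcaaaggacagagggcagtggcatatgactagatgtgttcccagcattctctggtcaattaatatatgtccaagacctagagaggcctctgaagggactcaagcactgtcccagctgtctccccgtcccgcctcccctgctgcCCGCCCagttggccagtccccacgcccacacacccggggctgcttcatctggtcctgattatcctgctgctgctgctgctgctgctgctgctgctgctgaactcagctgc
The 4 genes that were higher in null held 2 to 3 GC boxes each, at GC contents of 65.7% (Fbln5), 64.0% (Fbln1), 63.7% (Bgn) and 56.0% (Mmp14). Of the 2 that were lower, Pcolce held 1 GC box at 59.3% GC, and Ogn held none, with 42.3% GC and an overlapping pair of TATA box matches on opposite strands. The alternative starts of Fbln5 and Fbln1 held 0 GC boxes, at 48.7% and 51.7% GC, so these counts depend on the start. The median GC content of all 32851 promoters was 52.7%.

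The GC box occurred in 18 of the 29 promoters listed for 24 members (62.1%) and in 35.7% of all 32851 promoters of this length. These members include some that were not tested on the arrays, such as Fbn1, Tnc and Vcan. The other motifs were counted on both strands in the same windows. TATAAA was in 24.1% of the members' promoters and in 13.6% of all promoters. The CCAAT box, CCAAT, was in 31.0% of the members' and in 37.4% of all. The AP-1 motif, TGANTCA, was in 6.90% of the members' and in 7.81% of all. The SMAD-binding motif, CAGAC, was in 55.2% of the members' and in 49.6% of all, and its palindrome, GTCTAGAC, was in 0 members' promoters and in 0.213% of all. The E-box, CANNTG, was in 69.0% of the members' and 72.3% of all, the TEAD motif, CATTCC, in 13.8% of the members' and 14.7% of all, and the forkhead motif, TGTTTAC, in 3.45% of the members' and 3.65% of all. The CArG box and the MEF2 motif were in 0 of the members' promoters and in 1.63% and 0.557% of all. A match is a string of letters and not evidence of binding, and motifs can share bases with each other.

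Among the small leucine-rich proteoglycans, which coat collagen fibrils, Dcn and Bgn were higher and Ogn lower in null animals, out of 5 tested. Dcn, decorin, which binds collagen fibrils and TGF-beta, read 9.86, 9.36, 9.78, 9.79 and 9.54 in null arrays 1 to 5, against 8.51, 9.01, 8.56, 9.11 and 9.01 in heterozygous and 8.64, 9.15, 8.73, 9.19 and 9.20 in wild-type arrays. Every null array lay above every other array. Its mean was 9.67 ± 0.209 in null, 8.84 ± 0.282 in heterozygous and 8.98 ± 0.274 in wild-type animals (SD, n = 5 each). The excess was 1.61-fold over wild type (log2 0.68, SE 0.141, limma adjusted p = 0.00784) and 1.77-fold over heterozygous (log2 0.83, adjusted p = 0.0031).

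Bgn, biglycan, the closest relative of decorin, read 7.92, 7.22, 7.31, 7.72 and 8.23 in null, 6.34, 6.94, 6.80, 6.95 and 6.65 in heterozygous and 6.77, 6.94, 6.88, 7.09 and 7.50 in wild-type arrays. The null arrays cleared all heterozygous arrays, but wild-type array 5 lay above null arrays 2 and 3. The difference was 0.64 from wild type (SE 0.177, limma adjusted p = 0.034) and 0.94 from heterozygous (adjusted p = 0.00539). Bgn lies on the X chromosome, and its highest values, 7.92 and 8.23, were those of null arrays 1 and 5, which carried Xist signal. Without these arrays its difference from wild type was 0.38 (adjusted p = 0.217) and from heterozygous 0.68 (adjusted p = 0.0378), and the part of the mismatched label in it was not tested. The call against wild type was also lost without null array 1, 4 or 5 or wild-type array 1, 2, 3 or 4, with differences of 0.51 to 0.66 and adjusted p of 0.0531 to 0.0977.

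Ogn, osteoglycin or mimecan, moved the other way. It read 7.17, 7.62, 7.56, 8.18 and 8.17 in null, 8.08, 8.10, 8.19, 8.06 and 8.24 in heterozygous and 8.05, 8.22, 8.53, 8.40 and 8.47 in wild-type arrays. Null arrays 1, 2 and 3 lay below all other arrays, while null arrays 4 and 5 lay within the range of both other genotypes. The null signal was 66.3% of wild type (log2 -0.59, SE 0.152, limma adjusted p = 0.0254), and the difference from heterozygous, -0.39, had an adjusted p of 0.111. Ogn was no longer called when null array 1 was left out (-0.45, adjusted p = 0.0576). The same held for null array 3 (-0.55, adjusted p = 0.0691) and for wild-type array 3 (-0.55, adjusted p = 0.0693). Against heterozygous animals Ogn was instead called without null array 4 (-0.50, adjusted p = 0.0458) or null array 5 (-0.50, adjusted p = 0.0456).

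Fmod, fibromodulin, which guides fibril growth in tendon, did not pass the test. It read 7.13, 6.81, 6.97, 7.41 and 6.80 in null, 6.13, 6.58, 6.46, 6.95 and 6.52 in heterozygous and 6.32, 6.45, 6.28, 6.67 and 7.25 in wild-type arrays, with wild-type array 5 above all null arrays but the fourth. Its difference from wild type was 0.43 (SE 0.173, limma adjusted p = 0.137), and 0.59 without wild-type array 5 (adjusted p = 0.0227). Its difference from heterozygous was 0.50 (adjusted p = 0.0812). That difference was called when wild-type array 5 (adjusted p = 0.0382) or null array 2 (0.55, adjusted p = 0.0491) was left out. Lum, lumican, a keratan sulphate proteoglycan of the cornea and other connective tissue, read 6.21, 7.57, 7.19, 7.59 and 7.05 in null, 6.69, 7.13, 6.95, 7.28 and 7.35 in heterozygous and 7.0, 7.18, 7.13, 7.57 and 7.12 in wild-type arrays. The null arrays held both the lowest and the highest Lum value of all arrays, and the mean differed from wild type by -0.08 (adjusted p = 0.856), a sign that turned without null array 1 (0.15), without null arrays 1 and 5 (0.25) or without wild-type array 4 (0.0145). Aspn, asporin, lay at or below 5.12 on all arrays and was not tested.

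**Figure D2:**
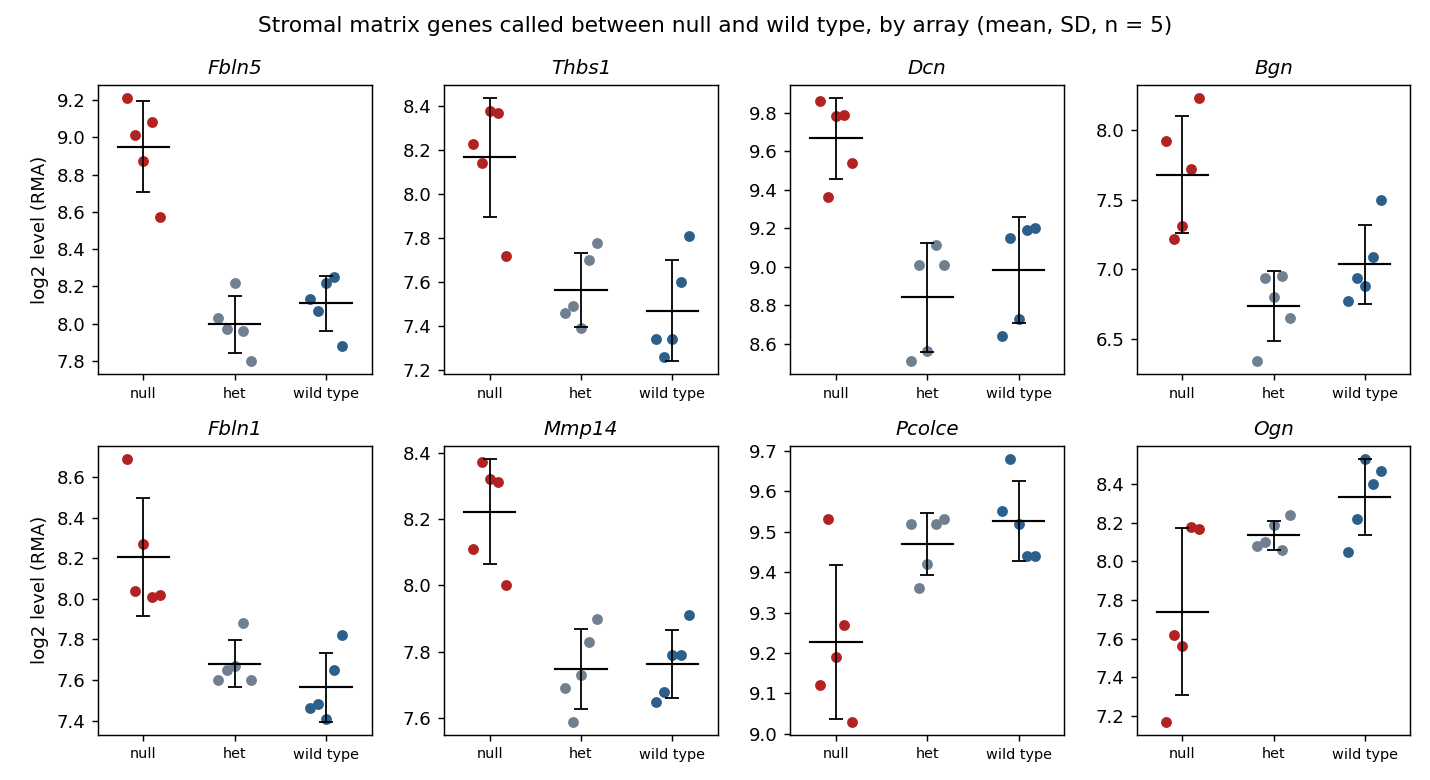
Log2 level of the 8 members called between null and wild-type animals, with each point 1 array; the wide bar is the mean and the whiskers the SD of 5 arrays. Null arrays of Fbln5, Dcn, Fbln1 and Mmp14 clear all other arrays, while Ogn and Pcolce are lower in null with some overlap.

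No collagen among the members passed the test with all 15 arrays. None of the 7 tested collagens was then called in any comparison, in either direction, and their differences between null and wild type ran from 0.02 to 0.23 (median 0.12, limma adjusted p 0.251 to 0.959). None of the 7 had an unadjusted p under 0.05 against wild type, and 2 had one against heterozygous animals. The chains of type I collagen, the main fibril collagen of most connective tissue, differed from wild type by 0.02 (Col1a1, SE 0.168) and 0.14 (Col1a2, SE 0.129). Col1a1 spanned 7.18 to 7.94 in null, 7.22 to 8.18 in heterozygous and 7.34 to 7.70 in wild-type arrays, and Col1a2 spanned 8.48 to 9.15 in null, 8.46 to 8.90 in heterozygous and 8.37 to 9.0 in wild-type arrays. Null animals therefore overlapped both other genotypes for both chains. The collagen differences were larger without null arrays 1 and 5, the arrays with Xist signal. Against wild type they were then 0.23 for Col1a1, 0.32 for Col1a2, 0.38 for Col3a1 and 0.34 for Col6a1 (limma adjusted p 0.0722 to 0.489), and against heterozygous animals Col3a1 was called (0.47, limma adjusted p = 0.0363).

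Col3a1, the chain of type III collagen, which forms fine reticular fibrils, spanned 6.39 to 7.31 in null, 6.43 to 6.82 in heterozygous and 6.53 to 6.97 in wild-type arrays (difference from wild type 0.12, SE 0.142). Col6a1, a chain of the beaded-filament type VI collagen, had the smallest p of the group. It read 6.22, 6.32, 6.28, 6.63 and 6.05 in null, 6.18, 5.99, 5.79, 6.16 and 6.09 in heterozygous and 5.95, 5.96, 5.85, 6.11 and 6.49 in wild-type arrays, and its difference of 0.23 from wild type (SE 0.118) had a limma adjusted p of 0.251. Wild-type array 5 lay above all null arrays except the fourth. Its partner Col6a2 differed by 0.04 (SE 0.104) and Col5a1, a chain of type V collagen, which nucleates type I fibrils, by 0.05 (SE 0.075).

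Col8a1, a short-chain collagen of subendothelial and corneal matrix, read 10.30, 10.29, 10.22, 10.27 and 10.22 in null, 9.82, 10.17, 10.20, 10.20 and 10.17 in heterozygous and 10.03, 10.19, 10.08, 10.19 and 10.15 in wild-type arrays. The null arrays lay within 0.08 of each other and above all other arrays, yet the difference from wild type was 0.13 (SE 0.0691, limma adjusted p = 0.257) and was not called. Col5a2, Col6a3 and Col12a1 lay below 5.31 or at it on all arrays and were not tested.

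The elastic fibre group held the member with the largest difference between null and wild type. Fbln5 and Fbln1 were called of 5 tested, both higher in null. Fbln5, fibulin-5, which brings tropoelastin to microfibrils and is required for elastic fibres to form, read 9.21, 9.01, 8.87, 9.08 and 8.57 in null, 8.03, 7.97, 8.22, 7.96 and 7.80 in heterozygous and 8.13, 8.07, 8.22, 8.25 and 7.88 in wild-type arrays. The lowest null array was above the highest array of either other genotype. Means were 8.95 ± 0.244 in null, 8.0 ± 0.151 in heterozygous and 8.11 ± 0.147 in wild-type animals (SD, n = 5 each). This was 1.79-fold over wild type (log2 0.84, SE 0.106, limma adjusted p = 4.03e-04) and 1.94-fold over heterozygous (log2 0.95, adjusted p = 2.07e-04). Fbln5 passed under all 28 alternative settings in both comparisons.

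Fbln1, fibulin-1, found in elastic fibres and basement membranes, read 8.69, 8.04, 8.27, 8.01 and 8.02 in null, 7.60, 7.65, 7.67, 7.88 and 7.60 in heterozygous and 7.46, 7.48, 7.41, 7.65 and 7.82 in wild-type arrays. Again no null array reached down to another genotype, with null array 1 the highest. The difference was 0.64 from wild type (1.56-fold, SE 0.116, limma adjusted p = 0.00341) and 0.53 from heterozygous (adjusted p = 0.0123), and it too passed under all 28 settings in both. Eln, tropoelastin, the core of the elastic fibre, read 6.86, 6.68, 6.80, 6.62 and 6.24 in null, 6.28, 6.41, 6.30, 6.43 and 6.19 in heterozygous and 6.25, 6.59, 6.18, 6.36 and 6.34 in wild-type arrays. Null arrays 1 to 4 lay above all others and null array 5 below most of them. The difference of 0.30 from wild type (SE 0.101, adjusted p = 0.0814) was not called, and it was called without null array 5 (0.40, adjusted p = 0.00826). Against heterozygous the difference was 0.32 (adjusted p = 0.06), and 0.42 without null array 5 (adjusted p = 0.00733).

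Efemp1, fibulin-3, a fibulin of loose connective tissue, read 6.96, 7.29, 6.94, 7.87 and 7.03 in null, 6.77, 7.01, 6.65, 7.06 and 6.87 in heterozygous and 7.02, 7.03, 6.86, 7.16 and 7.35 in wild-type arrays, and its difference from wild type was 0.13 (limma adjusted p = 0.625). Mfap4, a microfibril-associated glycoprotein, read 5.36, 5.40, 5.33, 5.34 and 5.40 in null, 5.40, 5.46, 5.40, 5.54 and 5.66 in heterozygous and 5.35, 5.32, 5.46, 5.40 and 5.52 in wild-type arrays, which is close to the filter level. Neither passed in any comparison. Fbln2, a further fibulin, and Mfap5, a microfibril glycoprotein, were not tested, Mfap5 exceeding 5.31 on 3 arrays.

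Thbs1 was the only called member among the 5 tested adhesive and matricellular genes. Thbs1, thrombospondin-1, a secreted protein that can release latent TGF-beta, read 8.23, 8.14, 8.38, 8.37 and 7.72 in null, 7.46, 7.49, 7.39, 7.70 and 7.78 in heterozygous and 7.34, 7.26, 7.34, 7.60 and 7.81 in wild-type arrays. Null arrays 1 to 4 lay above all others, while null array 5 was below heterozygous array 5 and wild-type array 5. The difference was 1.62-fold from wild type (log2 0.70, SE 0.126, limma adjusted p = 0.00341) and 1.52-fold from heterozygous (log2 0.60, adjusted p = 0.00989). Its paralog Thbs2 differed from wild type by 0.03 (SE 0.101, adjusted p = 0.903), spanning 6.60 to 7.23 in null, 6.66 to 7.06 in heterozygous and 6.70 to 6.96 in wild-type arrays.

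Mgp, matrix Gla protein, an inhibitor of calcification, read 7.02, 7.61, 6.72, 7.80 and 6.56 in null, 7.36, 7.49, 7.49, 7.57 and 7.61 in heterozygous and 7.37, 7.58, 7.43, 7.61 and 8.36 in wild-type arrays. Null arrays 1, 3 and 5 lay below all others and null arrays 2 and 4 at or above all others but wild-type array 5, and the difference of -0.53 from wild type (SE 0.21) had a limma adjusted p of 0.132. It passed without null array 4 (-0.69, adjusted p = 0.0404). Fn1, fibronectin, the adhesive protein on which collagen fibrils assemble, had the largest spread within genotypes (residual SD 0.752). It read 7.60, 7.10, 7.13, 8.41 and 7.34 in null, 7.04, 7.13, 6.34, 7.97 and 6.91 in heterozygous and 6.90, 7.0, 6.37, 6.90 and 9.03 in wild-type arrays, and the difference of 0.28 from wild type had an SE of 0.397 and turned to -0.20 with the label number as a covariate. The highest Fn1 value of each genotype was on null array 4, heterozygous array 4 and wild-type array 5, and the same arrays had the highest mean of the leptomeningeal markers in their genotype (7.81, 7.22 and 7.74). The part of leptomeningeal tissue in the Fn1 values was not tested. Postn, periostin, spanned 6.33 to 7.71 in null, 6.69 to 7.12 in heterozygous and 6.87 to 7.20 in wild-type arrays (difference from wild type -0.11, adjusted p = 0.75). Tnc and Vcan, a large adhesive glycoprotein and a large hyaluronan-binding proteoglycan, were below the filter on all arrays.

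**Figure D3:**
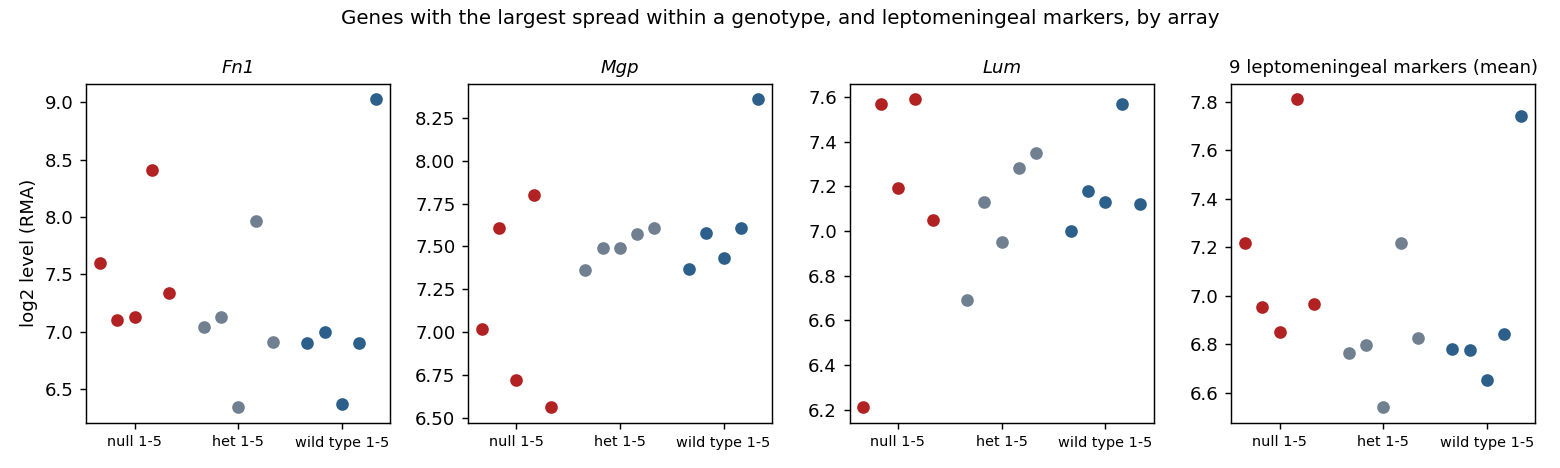
Log2 level by array, numbered 1 to 5 from left to right in each genotype, for the 3 members with the largest residual SD (Fn1, Mgp, Lum) and for the mean of 9 leptomeningeal markers. Null array 4, heterozygous array 4 and wild-type array 5 are the highest of their genotype for Fn1 and for the markers, and null array 1 is lowest for Lum at 6.21.

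Of 5 tested genes of processing and turnover, Mmp14 was higher and Pcolce lower in null animals. Mmp14, a membrane-anchored metalloproteinase that cuts fibrillar collagen and activates the Mmp2 proenzyme, read 8.11, 8.37, 8.32, 8.31 and 8.0 in null, 7.69, 7.59, 7.73, 7.83 and 7.90 in heterozygous and 7.65, 7.68, 7.79, 7.79 and 7.91 in wild-type arrays. No null array overlapped another genotype. The difference was 1.37-fold from wild type (log2 0.46, SE 0.0797, limma adjusted p = 0.00286) and 1.39-fold from heterozygous (log2 0.47, adjusted p = 0.00284). Mmp2 itself, a gelatinase, differed from wild type by -0.07 (SE 0.0864, adjusted p = 0.661), spanning 7.89 to 8.24 in null, 7.89 to 8.30 in heterozygous and 8.0 to 8.21 in wild-type arrays. Timp3, a matrix-bound inhibitor of metalloproteinases, spanned 9.84 to 10.08 in null, 9.98 to 10.18 in heterozygous and 9.97 to 10.22 in wild-type arrays, a difference of -0.09 from wild type (adjusted p = 0.377).

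Pcolce, which enhances the cleavage of procollagen C-propeptides, read 9.12, 9.53, 9.19, 9.27 and 9.03 in null, 9.52, 9.36, 9.42, 9.52 and 9.53 in heterozygous and 9.55, 9.68, 9.52, 9.44 and 9.44 in wild-type arrays. Null arrays 1, 3, 4 and 5 lay below all others, and null array 2 lay among them. The null signal was 81.3% of wild type (log2 -0.30, SE 0.0805, limma adjusted p = 0.0316), and the difference from heterozygous was -0.24 (adjusted p = 0.0684), which passed without null array 2 (-0.32, adjusted p = 0.00525). The call against wild type was lost without null array 1, 3 or 5 or wild-type array 1, 2 or 3 (-0.30 to -0.25, adjusted p 0.0598 to 0.089), and without null arrays 1 and 5 together it was -0.20 (adjusted p = 0.193).

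The lysyl oxidases cross-link collagen and elastin. Loxl1, the form tied to elastic fibres, spanned 7.22 to 7.52 in null, 7.27 to 7.43 in heterozygous and 7.23 to 7.51 in wild-type arrays (difference from wild type -0.01, SE 0.0691). Lox read 5.34, 4.41, 4.58, 4.49 and 4.37 in null, 3.97, 3.91, 3.92, 4.09 and 4.02 in heterozygous and 3.97, 3.75, 4.09, 4.31 and 4.20 in wild-type arrays, all but null array 1 below the filter. Every null array was above every other array. The gap was widest for null array 1. Since 14 of the 15 values lay below the filter, Lox was not among the genes tested. Differences near the background are compressed on arrays. Timp1, a soluble metalloproteinase inhibitor, was below the filter on all arrays.

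**Figure D4:**
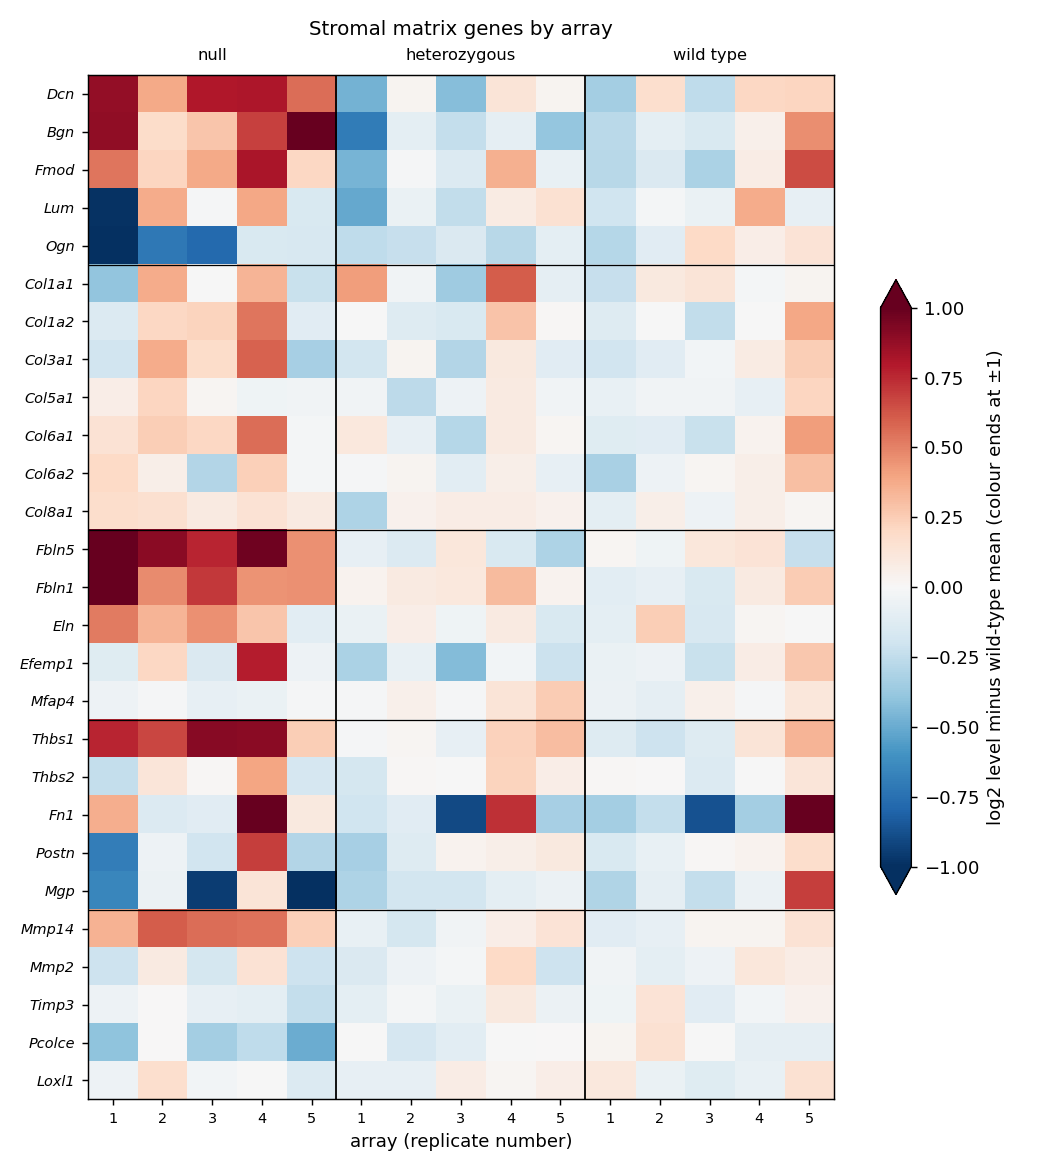
Log2 level of the 27 tested members on each of the 15 arrays minus the wild-type mean, with null arrays on the left, then heterozygous and wild-type arrays; red is above and blue below the wild-type mean, and the colour ends at 1 in either direction. Dcn, Bgn, Fmod, Col8a1, Fbln5, Fbln1, Thbs1 and Mmp14 are red on all 5 null arrays. Null arrays 2 and 4, heterozygous array 4 and wild-type array 5 are red for 21 to 23 of the 27 members, wild-type array 4 for 17 and null array 3 for 14.

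Heterozygous against wild type called 0 of the 27 members and 0 of 10109 genes in limma, 0% higher and 0% lower, with 0 members and 381 genes at an unadjusted p under 0.05. No member separated the arrays of these genotypes, against 0.801% of all tested genes. The differences ran from -0.30 to 0.12 with a median of -0.04, and 21 of the 27 were below 0. Bgn had the smallest p in limma (-0.30, SE 0.177, unadjusted p = 0.108), then Efemp1 (-0.21, SE 0.146), Mfap4 (0.08, SE 0.0594) and Ogn (-0.20, SE 0.152), and adjusted p were 0.994 to 0.997 for all members. The median of the members was 0.04 without wild-type array 5 and heterozygous array 1, so its sign rested on those arrays. For Dcn and Fbln5 the heterozygous minus wild-type differences were -0.14 (SE 0.141) and -0.11 (SE 0.106), beside null minus wild-type differences of 0.68 and 0.84.

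The members also varied together among animals of the same genotype. After each genotype's mean was removed, the median Pearson r over the 351 pairs of tested members was 0.334 across the 15 arrays, and 27.1% of pairs exceeded 0.5. Over all pairs of tested genes the median was 0.0431 and 9.20% exceeded 0.5. Without wild-type array 5 the members' median was 0.293. All arrays contribute to all pairs, and these values are descriptions. The mean r with the other members was highest for Col1a2 (0.499), Mgp (0.492), Col3a1 (0.481) and Thbs2 (0.467) and lowest for Fbln5 (-0.0301), Bgn (0.06), Ogn (0.0756) and Fbln1 (0.105). The closest pairs were Col1a2 with Col6a1 (0.891), Thbs2 with Postn (0.883) and Fn1 with Fmod (0.864). Of called members, Thbs1 and Mmp14 were each other's closest (0.778). The 27 members averaged 0.40 above the wild-type mean on null array 4, 0.13 above it on heterozygous array 4 and 0.25 above it on wild-type array 5, the highest average of each genotype.

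For 6 pairs whose products share a fibril or filament, the correlation was tested by permuting arrays within genotype, two-sided, with p adjusted over the 6 (a seventh, Fbn1 with Eln, could not be measured). Col1a1 followed Col1a2 (r = 0.642, permutation p = 0.0114, adjusted 0.0347; rho = 0.656, permutation p = 0.024, adjusted 0.0709). Col1a1 also followed Col3a1 (r = 0.68, permutation p = 0.0129, adjusted 0.0347; rho = 0.70, permutation p = 0.0142, adjusted 0.0709). These values were 0.558 and 0.659 without the arrays farthest from the median of Col1a1, heterozygous arrays 3 and 4. Col5a1 with Col5a2 gave r = 0.647 (permutation p = 0.0174, adjusted 0.0347; rho = 0.551, permutation p = 0.0473, adjusted 0.0709), and 0.469 without wild-type array 5 and null array 2. Col6a1 with Col6a2 gave r = 0.584 (permutation p = 0.0619, adjusted 0.0929; rho = 0.579, permutation p = 0.0358, adjusted 0.0709), and 0.215 without wild-type array 5 and null array 4, so the relation rested on those arrays. Col6a1 with Col6a3 (r = 0.302, permutation p = 0.328, adjusted 0.394; rho = 0.494, permutation p = 0.0857, adjusted 0.103) and Dcn with Lum (r = 0.151, permutation p = 0.591, adjusted 0.591; rho = 0.266, permutation p = 0.326, adjusted 0.326) did not pass. Col5a2 (4.81 to 5.31) and Col6a3 (4.55 to 4.76) lay at or below the filter level on all arrays, so the correlations with them rest on low signal. With 5 arrays a genotype, no correlation within a single genotype was computed.

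**Figure D5:**
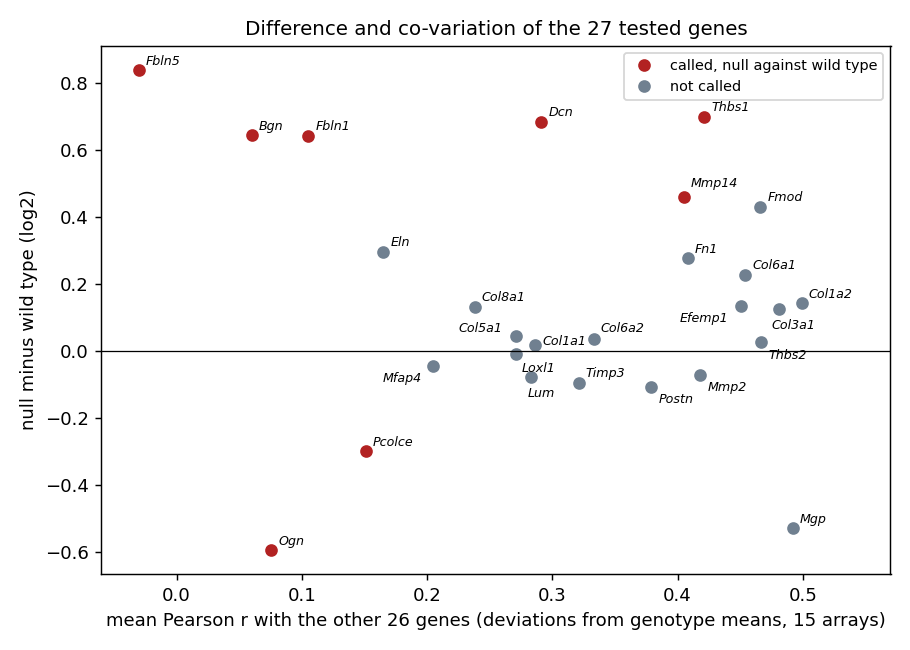
Difference in log2 level between null and wild-type animals (vertical) against the mean Pearson r of a member with the other tested members after removal of genotype means (horizontal), for the 27 tested members; red points were called. Fbln5, Bgn, Fbln1, Ogn and Pcolce lie at mean r of 0.151 or less, Dcn at 0.291, and Thbs1 and Mmp14 at 0.421 and 0.405.

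Genes outside the 39 were read from lists of the same pathway. Of all 10109 tested genes, 4.17% were called higher and 3.54% lower in null than in wild-type animals. Against heterozygous animals these shares were 4.28% and 3.54%. The lists had 13.6% (collagen processing), 13.6% (other stromal matrix), 9.09% (proteases) and 22.2% (TGF-beta) called against wild type. The protease share was close to that of all genes. Of 22 tested genes of fibrillar collagen processing (30 listed), 0 were higher and 3 lower in null than in wild-type animals, with a list median of -0.07. P3h2, a prolyl 3-hydroxylase of collagen, spanned 7.47 to 7.78 in null, 7.93 to 8.03 in heterozygous and 7.86 to 8.19 in wild-type arrays, with no null array reaching another genotype (-0.42, SE 0.0742, limma adjusted p = 0.00295). P4ha1, the catalytic subunit of the prolyl 4-hydroxylase that stabilises the triple helix, spanned 8.46 to 8.73 in null, 8.71 to 8.94 in heterozygous and 8.79 to 8.98 in wild-type arrays (-0.29, SE 0.0612, adjusted p = 0.00903). Pcolce2, a paralog of Pcolce, was lower too (-0.26, SE 0.0764, adjusted p = 0.0489). Against heterozygous animals P3h2 (-0.36, adjusted p = 0.00989), P4ha1 (-0.24, adjusted p = 0.0254) and Tll1, a tolloid protease that trims procollagen (-0.46, adjusted p = 0.0202), were lower and 0 of the 22 higher.

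Of 22 tested genes of other stromal matrix (44 listed, median 0.11), 2 were higher and 1 lower in null than in wild-type animals. Ecm2 rose by 0.54 (SE 0.159, limma adjusted p = 0.0447), with null array 2 within the wild-type range. Ltbp1, which stores latent TGF-beta in the matrix, rose by 0.26 (SE 0.0574, adjusted p = 0.0122), and Col14a1, a collagen on fibril surfaces, fell by 0.46 on the log2 scale (SE 0.139, adjusted p = 0.0489). Against heterozygous animals Ecm2 (0.70, adjusted p = 0.0142) and Matn2, matrilin-2 (0.26, adjusted p = 0.012), were higher. Of 11 tested matrix proteases and inhibitors (26 listed, median 0.05), Adamts5, an aggrecan- and versican-cutting protease, was the 1 called against wild type (0.35, SE 0.0899, adjusted p = 0.0254) and Plat, tissue plasminogen activator, the 1 called against heterozygous (0.50, adjusted p = 0.0409), both higher in null.

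TGF-beta signalling, with which decorin, thrombospondin-1 and Ltbp1 interact, had 18 tested genes (20 listed, median 0.13), of which 4 were higher and 0 lower in null than in wild-type animals. They were Smad7, the inhibitory SMAD (0.39, SE 0.0822, limma adjusted p = 0.0093), Ltbp1, the co-receptor Tgfbr3 (0.27, SE 0.0663, adjusted p = 0.0202) and Smad4, the common SMAD (0.23, SE 0.0613, adjusted p = 0.0278). Against heterozygous animals the ligand Tgfb3 (0.43, adjusted p = 0.0165) and Tgfbr3 (0.23, adjusted p = 0.0409) were higher. In heterozygous against wild-type animals 0 genes of these 4 lists were called in limma, with 1 gene each of the collagen processing, other matrix and TGF-beta lists and 0 of the proteases at an unadjusted p under 0.05.

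Fibroblasts secrete much of the stromal matrix, and endothelial cells line its capillaries. Called against wild type were 12.5% of tested fibroblast, 33.3% of endothelial and 25.0% of epithelial markers. Of all tested genes 4.17% were called higher and 3.54% lower. Of 8 tested stromal fibroblast markers (12 listed), 1 was higher in null than in wild-type animals: Pdgfra, a growth factor receptor of fibroblasts, spanned 8.29 to 9.38 in null, 7.66 to 8.32 in heterozygous and 7.75 to 8.28 in wild-type arrays (0.79, SE 0.175, limma adjusted p = 0.0113). The markers Tcf21 (-0.10), Twist1 (-0.04) and Prrx1 (-0.02) lay below 0 and were not called. Lepr joined Pdgfra against heterozygous animals (0.29, adjusted p = 0.0422), where all 8 lay above 0. The mean of the 8 markers ran from 6.34 to 6.69 on null, 6.10 to 6.42 on heterozygous and 6.23 to 6.61 on wild-type arrays, which overlap. Of 6 tested endothelial markers (10 listed), Kdr (0.49, adjusted p = 0.00395) and Cdh5 (0.55, adjusted p = 0.0275) were higher in null than in wild-type animals, and Tie1 (-0.04) and Emcn (-0.03) lay below 0 and were not called. The endothelial list mean ran from 6.00 to 6.59 on null, 5.88 to 6.14 on heterozygous and 5.91 to 6.43 on wild-type arrays. Their part in the results on the members was not tested.

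The leptomeningeal list, 9 tested of 12, had 0 genes called against wild type in limma (2 at an unadjusted p under 0.05) and 1, Foxc2, higher against heterozygous animals (0.69, adjusted p = 0.0217). Its mean ran from 6.85 to 7.81 on null, 6.54 to 7.22 on heterozygous and 6.65 to 7.74 on wild-type arrays. Pericyte and smooth muscle markers (3 tested, 6.01 to 6.58 on null, 6.04 to 6.31 on heterozygous and 5.90 to 6.37 on wild-type arrays), macrophage markers (4 tested, 5.59 to 6.14 on null, 5.61 to 5.88 on heterozygous and 5.68 to 6.07 on wild-type arrays), neuron markers (3 tested) and oligodendrocyte markers (5 tested, 5.52 to 6.80 on null, 6.11 to 7.35 on heterozygous and 5.99 to 6.59 on wild-type arrays) had 0 called in any comparison in limma. Unadjusted, 1 neuron marker reached p under 0.05, between null and heterozygous animals, and 0 of the pericyte and smooth muscle, macrophage and oligodendrocyte markers did. Of 8 epithelial markers, Aqp1, a water channel, was higher (0.34, adjusted p = 0.00256) and Kcnj13, a potassium channel, lower (-0.23, adjusted p = 0.027) in null than in wild-type animals.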

How the data were processed

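RNA of 15 choroid plexi was measured on Affymetrix whole-transcript arrays, and groups come from the genotype label. The deposited table covers 35556 probe sets. The authors used RMA in Affymetrix Expression Console 1.1, per the submitters' processing notes. This method corrects background, equalises quantiles between arrays and summarises probes, which removes differences in total signal. The deposited values are taken as log2, read from their range of 1.57 to 13.89 and array medians of 4.78 to 4.88, since the sources used here do not give the log base, nor the genome build or the deleted part of Add1.

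Names came from the platform's annotation, parts of which may be outdated. It lists 23410 probe sets, 21789 of them with 1 gene symbol, 1621 with several and 12146 unlisted, and 21698 of the single-symbol identifiers were in the RefSeq table of GRCm38.p6, from which promoters were also read. The probe set with the highest mean stood for each of 19938 genes, and genes above 5.31 on at least 5 arrays were tested. All 15 arrays entered 1 limma fit (limma 3.58.1, R 4.3.3; lmFit and eBayes, no covariate), with p-values adjusted by Benjamini-Hochberg over 10109 genes. The fit was run on simulated data with independent noise for each gene. Such data lack the shared variation and the deviant arrays seen here, so the run checks the computation only. Pairs of members were tested on deviations from genotype means with 100000 permutations, whose smallest p is 1e-05.

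The members, lists and tests were chosen with earlier results of these data known. Values per array are given for members called in any comparison, for up to 4 uncalled members of smallest p per comparison, for those with the largest residual SD and for those with the highest mean (of these, Timp3 as a range). Nothing in the labels says that the animals came from separate litters, so p-values measure the spread between these animals. Precision is limited by the number of animals. No 2 arrays were copies (smallest SD of a difference among 105 pairs 0.127). Each sample also carries an unexplained label number, 444 to 483 in null, 428 to 460 in heterozygous and 429 to 451 in wild-type animals. Alternatives were other filters, normalisations, fits, blocks, covariates and array weights, and each array left out in turn. Leaving out null arrays 1 and 5, or wild-type array 5 with heterozygous array 1, was added after seeing the data.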

Additional observations from a re-analysis of the deposited data

Results flagged for a closer look

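Each member tested, and Lox, was checked in each genotype for an array far from the other 4. Of 84 groups of 5 arrays, 6 held an array whose gap to its neighbour was a large part of the group's range, and chance flags about 1 in 20 groups (5%). Lox, the only untested member added to this check, read 5.34 on null array 1, its 1 value above the filter, where the next null array read 4.58. Col8a1 read 9.82 on heterozygous array 1, the array high in neural transcripts, where the next lowest read 10.17. Fbln1 read 7.88 on heterozygous array 4, where the next read 7.67. On wild-type array 5, the array with the highest leptomeningeal markers of its genotype, Fn1 read 9.03 (next 7.0), Mgp 8.36 (next 7.61) and Col5a1 5.85 (next 5.60). The number of flags is not far above the chance rate. The part of neural or leptomeningeal tissue in these values was not tested.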

How the results depend on the processing

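The settings tried were 28 for each comparison, 15 of them leaving out 1 array. Over 30 differences of the members named by the rule, 777 values kept direction and side of the threshold, 38 were no longer called, 19 became called and 4 turned sign. Those 4, all between null and wild type and none called, were Lum without null array 1 (0.15), without wild-type array 4 (0.0145) or without null arrays 1 and 5 (0.25), and Fn1 with the label number as a covariate (-0.20). With the label number as a covariate, 4 members were called in each null comparison. Mmp14, Thbs1, Dcn, Bgn and Pcolce lost their calls against wild type and Eln gained one. Mmp14, Dcn, Bgn and Thbs1 lost theirs against heterozygous and Eln and Ogn gained one. The members' median against wild type fell to 0.00. With the label number as a random block instead, 8 members were called against wild type and 6 against heterozygous animals, the same counts as without it. Label number and genotype are partly aligned, so their parts cannot be fully told apart. Without the filter on low levels, Bgn and Pcolce lost their calls against wild type (adjusted p = 0.0584 and 0.0557), and Lox, below the filter on all but null array 1, was called in both null comparisons; a fit without both the filter and that array was not run. The members called against wild type were 5 when the 2 genotypes were fitted alone and 5 over all probe sets, and 5 to 9 when 1 array was left out (6 to 8 against heterozygous). Genes called in null against wild type, 780, became 458 (2 genotypes), 259 (label number), 1315 (array weights), 401 (without null arrays 1 and 5) and 392 to 1420 (1 array left out, lowest without wild-type array 1 and highest without null array 2). Genes called in null against heterozygous, 791, became 500 (no filter), 342, 199, 1296 and 332 under the corresponding settings, 423 without wild-type array 5 and heterozygous array 1, and 356 to 1812 with 1 array left out (lowest without null array 1, highest without null array 2). In heterozygous against wild type, 0 became 1 with array weights or without null arrays 1 and 5, and 0 to 1 with 1 array left out. Centring each array on its median called 262 genes higher and 558 lower against wild type, beside 422 and 358, with 5 members higher and 2 lower. With the replicate number as a block, 520 genes and 7 members were called against wild type (Pcolce lost, adjusted p = 0.0525), 546 and 6 against heterozygous, and 0 and 0 in heterozygous against wild type. The labels do not say that the replicate numbers pair the animals, and not every correlation of same-numbered arrays was over 0.1, so no pairing was assumed. They ran from -0.224 to 0.0636 (null with wild type), -0.254 to 0.238 (null with heterozygous) and -0.0562 to 0.15 (heterozygous with wild type). In this last comparison 4 of 5 arrays correlated best with their own number, at r of 0.15 or less. Replicates 2, 3 and 4 share a label number, but replicate 4 was the 1 that did not match (-0.0562). Replicates 1 and 5 matched with different label numbers. Whether the arrays are paired is not settled by the labels or by these values. Spearman correlations of 0.656, 0.70 and 0.551 did not pass for Col1a1 with Col1a2, Col1a1 with Col3a1 and Col5a1 with Col5a2. Without the 2 arrays farthest from the median, Col6a1 gave 0.215 with Col6a2 and 0.611 with Col6a3, and Dcn with Lum turned to -0.0568. The cause of these shifts was not tested, other than fewer genes or arrays entering the fit.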
